A study of Mus musculus with 9 samples.

Results

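The 9 genes Rnf150, Scel, Abca6, Plekha6, Arhgef18, Ndnf, Ypel2, Fbxo32 and Trerf1 were chosen by a large drop of their transcripts in mouse monocytes incubated with P7 platelets against control monocytes. They are 9 of 55367 gene symbols in the count tables and 9 of the 13707 genes with enough reads to be tested. The values that chose them are their levels in the P7 and control libraries, so the difference between those groups is described here with no test. The rule names no adult platelet value, though results of all groups were known when the genes were chosen, and the account turns on where the adult libraries fall.

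Adult mouse monocytes were kept with P7 platelets, with adult platelets or with control buffer for 4 h, then washed, and polyA RNA was sequenced from 3 libraries per group. P7 is the labels' own term for these platelets, set against adult ones, and the sample titles call them Neoplts. No genotype, strain or monocyte isolation method is given, and all 3 groups received monocytes of the same label. Total counts per library were 29687341 to 35333463 with P7 platelets, 30974956 to 34394579 with adult platelets and 35314701 to 37065564 in the control. All 9 monocyte markers checked, Ly6c2, Ccr2 and Csf1r among them, were above 1 CPM (counts scaled to the library total) in each group. Their summed share of counts was 2.45 to 2.95% with P7 platelets, 2.71 to 3.11% with adult platelets and 2.51 to 2.76% in the control. Most of that sum was Lyz2, so it says little of the other markers. In the test described below, 6 of the 9 markers rose and 2 fell with P7 platelets against control (29.9 and 29.3% of all genes). With adult platelets against control 3 rose and 0 fell (14.3 and 12.0% of all genes). Nothing states whether replicates came from separate animals or cultures, so p-values measure the spread between these libraries, which may be technical.

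Platelets are small blood cells without a nucleus that bind monocytes and alter their gene expression through surface ligands and released mediators. The 9 genes are not known as parts of a common pathway. Rnf150 and Fbxo32 encode parts of the ubiquitin system, which tags proteins for breakdown or relocation. Abca6 encodes a lipid-handling membrane transporter of the ABC family, and Arhgef18 a guanine nucleotide exchange factor, which switches on small GTPases that control the actin cytoskeleton. The other genes encode a pleckstrin homology domain protein (Plekha6), a component of the cornified envelope of skin (Scel), a secreted factor first known from neurons (Ndnf), a zinc-binding Yippee-like protein (Ypel2) and a zinc finger regulator of transcription (Trerf1).

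The genes lie on 7 mouse chromosomes, and no motif searched was found in the promoters of all those that had a window. RefSeq promoter windows of GRCm38.p6, running from 250 bases before to 50 bases after a start site, were found for 5 of the 9 genes. The windows below are shown because they hold a motif match. The window of Plekha6 and the other window of Arhgef18 hold none and are not shown. Each is given 5′ to 3′ on the strand of its gene, and capitals mark a motif match on either strand. In Scel (chr14:103513091-103513390, plus strand) the capitals are an AP-1 motif, TGANTCA. In Ypel2 (chr11:86993713-86994012, minus strand) they are 3 Sp/KLF motifs, GGGCGG. In Arhgef18 (chr8:3392758-3393057, plus strand, the nearer to the annotated gene start of its 2 windows) they are 2 Sp/KLF motifs and 1 E-box, CACGTG. In Trerf1 (chr17:47229980-47230279, plus strand, inside the annotated gene) they are 3 PU.1 motifs, GAGGAAG.
Scel: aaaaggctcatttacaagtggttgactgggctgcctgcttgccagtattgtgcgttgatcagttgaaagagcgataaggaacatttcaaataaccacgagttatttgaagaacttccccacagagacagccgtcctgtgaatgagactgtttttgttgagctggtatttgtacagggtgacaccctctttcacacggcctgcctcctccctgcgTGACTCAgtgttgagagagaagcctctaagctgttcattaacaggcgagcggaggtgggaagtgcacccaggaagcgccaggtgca
Ypel2: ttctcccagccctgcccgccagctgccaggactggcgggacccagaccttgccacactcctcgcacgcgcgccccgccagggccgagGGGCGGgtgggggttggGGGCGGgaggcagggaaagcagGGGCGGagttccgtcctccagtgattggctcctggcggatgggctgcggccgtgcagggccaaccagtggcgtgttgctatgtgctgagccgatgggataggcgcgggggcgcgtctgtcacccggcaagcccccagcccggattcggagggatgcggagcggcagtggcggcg
Arhgef18: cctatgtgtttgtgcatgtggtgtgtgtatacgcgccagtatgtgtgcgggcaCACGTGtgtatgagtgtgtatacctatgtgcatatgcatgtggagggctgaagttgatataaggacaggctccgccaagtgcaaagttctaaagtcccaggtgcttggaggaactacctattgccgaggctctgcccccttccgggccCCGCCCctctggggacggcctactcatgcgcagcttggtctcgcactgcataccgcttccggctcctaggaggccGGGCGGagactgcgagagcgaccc
Trerf1: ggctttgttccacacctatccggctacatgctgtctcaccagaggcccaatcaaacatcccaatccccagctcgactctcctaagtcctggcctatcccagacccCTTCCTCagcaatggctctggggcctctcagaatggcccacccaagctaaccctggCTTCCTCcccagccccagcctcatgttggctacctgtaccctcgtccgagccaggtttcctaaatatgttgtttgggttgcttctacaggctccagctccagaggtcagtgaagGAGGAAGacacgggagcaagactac

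GC content was 72.7% in the Ypel2 window and 50% in the Scel window, against a median of 52.7% over all 32851 windows. Of all windows, 35.7% held the Sp/KLF motif, 13.6% the PU.1 motif, 7.81% the AP-1 motif and 7.15% the E-box. Among the 5 genes with a window, 2 held the Sp/KLF motif and 1 each held the AP-1, PU.1 and E-box motifs. None of the 5 held a kappaB, ISRE or C/EBP (TTGCNNAA) motif, which occurred in 0.411%, 3.44% and 10.8% of all windows. The FOXO motif (TGTTTAC), in 3.65% of all windows, and the CRE (TGACGTCA), in 1.79%, were in none of the 5. The TATA motif (TATAAA) was in 13.6% of all windows and in none of the 5. A place matching on both strands was counted once, and a match is a string of letters, not a shown binding site.

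With adult platelets, 8 of the 9 genes fell against the control, the exception being Trerf1. With P7 platelets all 9 were lower than with adult platelets. A gene was called lower at an adjusted p below 0.05 in edgeR's quasi-likelihood test, with Benjamini-Hochberg adjustment over the 13707 genes. Over all genes tested, 12.0% were called lower with adult platelets against control, and 19.8% were called lower with P7 against adult platelets. Both calls together, a step down with adult platelets and a further step down with P7 platelets, were made for 8 of the 9 genes and for 6.23% of all genes. In either direction, 26.4% of genes were called with adult platelets against control, 39.6% with P7 against adult platelets and 59.2% with P7 platelets against control. The first of these shares stands for 3617 genes, against 2031 without control replicate 2 and 2207 without control replicate 3, while 8 of the 9 genes were called lower in each of those fits. Without a test, the P7 libraries all lay below the adult libraries for 9 of the 9 genes (24.8% of all genes), the adult libraries all below the control for 8 (20.9%), and both held for 8 (10.3%). The P7 libraries all lay below the control for 9 (34.7%), which the choice of genes fixed. The 2 comparisons with adult platelets share libraries with the contrast that chose the genes, so these counts are not independent evidence of direction.

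Against genes that also dropped with P7 platelets the share of intermediate genes was nearer. Of the 974 genes called at least 2-fold lower with P7 platelets than in the control, 49.6% were called lower with adult platelets against control, 70.4% were called lower with P7 against adult platelets, and 37.8% passed both. Among those 974, 0 were called higher with adult platelets than in the control. That set reaches down to 2-fold, whereas the 9 genes were 4.64 to 10.4-fold lower, so the shares are not like for like.

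**Figure D1:**
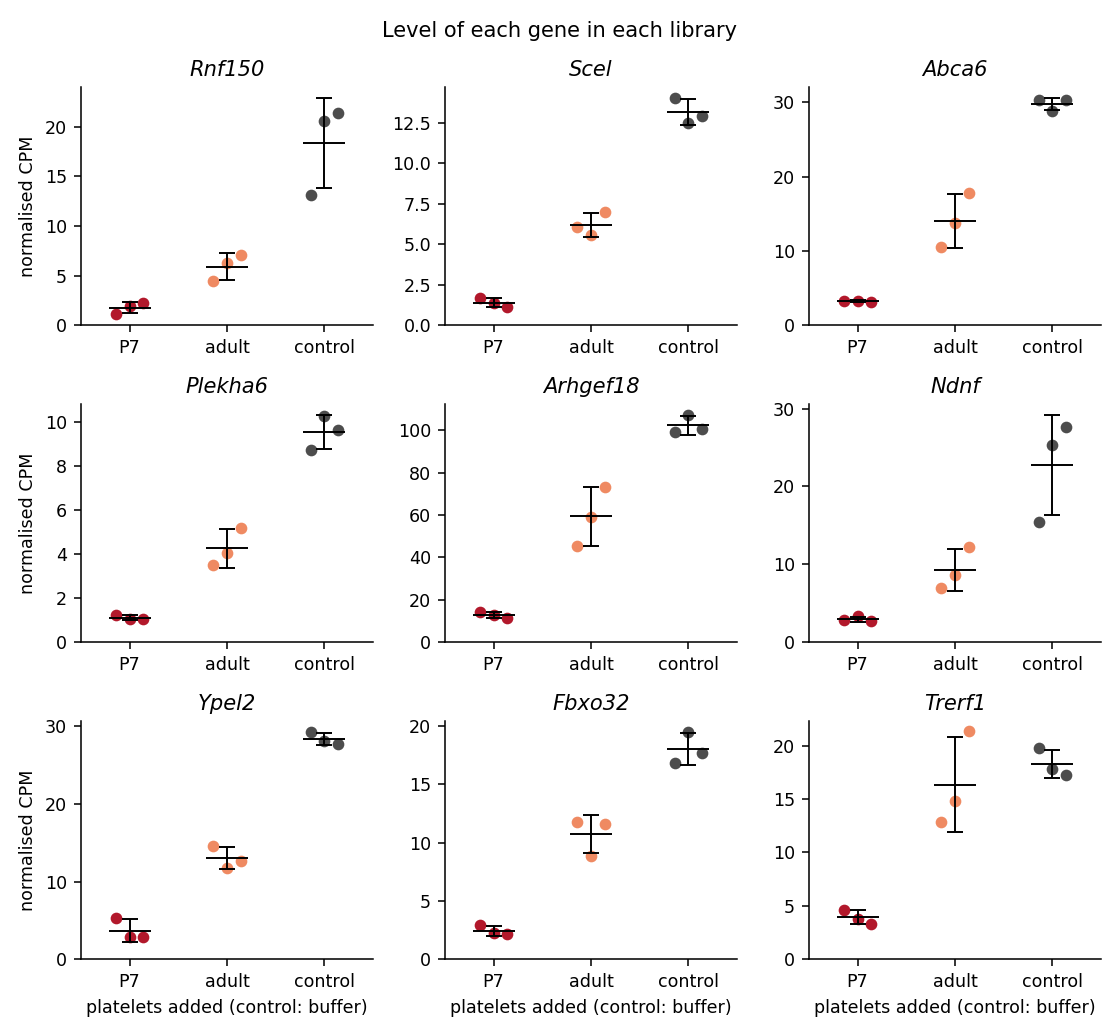
Normalised CPM of each gene in each library, 1 panel per gene with its own axis from 0. Points are the 3 libraries of the P7, adult and control groups, with the mean (long bar) and SD (whiskers). In 8 panels the adult libraries lie above all P7 and below all control libraries, and in the Trerf1 panel adult libraries lie on both sides of the control libraries.

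Rnf150 encodes a membrane-bound ubiquitin ligase of the PA-TM-RING family, with a protease-associated domain facing the lumen or outside and a RING finger in the cytosol. It lies on chromosome 8 at 82863356 to 83091268 of GRCm38 (GENCODE M21, plus strand). Its normalised CPM was 1.17, 1.89 and 2.25 with P7 platelets, 4.42, 6.29 and 7.03 with adult platelets, and 13.1, 20.6 and 21.4 in the control (replicates 1, 2 and 3). The groups did not overlap, and replicate 1 was the lowest library in each of them. Its mean was 10.4-fold lower with P7 platelets than in the control, the largest drop of the 9. Rnf150 fell with adult platelets against the control, with a log2 fold change of -1.63 ± 0.25 (SE, edgeR adjusted p = 0.00176). Against adult platelets the P7 libraries gave a log2 fold change of -1.74 ± 0.29 (edgeR adjusted p = 0.00147). Rnf150 ranked 33 among all tested genes by its log2 fall with adult platelets, the highest place of the 9.

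Fbxo32 encodes atrogin-1, the F-box protein that brings substrates to an SCF ubiquitin ligase, best known for its induction in wasting muscle. It lies on chromosome 15 at 58175879 to 58214932 (minus strand). Fbxo32 had normalised CPM of 2.91, 2.26 and 2.15 with P7 platelets, 11.8, 8.81 and 11.6 with adult platelets, and 16.9, 19.5 and 17.7 in the control. The groups did not overlap, and adult replicate 2 was below the other adult libraries. Its mean was 7.36-fold lower with P7 platelets than in the control. With adult platelets Fbxo32 fell against the control, with a log2 fold change of -0.75 ± 0.13 (SE, edgeR adjusted p = 0.00356). With P7 platelets it was lower than with adult platelets by a log2 fold change of -2.13 ± 0.15 (edgeR adjusted p = 2.32e-05).

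Abca6 encodes an ABC transporter of subfamily A, whose members move lipids across or within membranes. It lies on chromosome 11 at 110176820 to 110251776 (minus strand), in a cluster of related genes on the same strand. The normalised CPM of Abca6 was 3.31, 3.20 and 3.05 with P7 platelets, 10.5, 13.8 and 17.8 with adult platelets, and 30.3, 28.8 and 30.3 in the control. The P7 and control libraries were each tightly grouped, and the adult libraries were spread between them. Its mean was 9.33-fold lower with P7 platelets than in the control. Abca6 fell with adult platelets against the control, with a log2 fold change of -1.08 ± 0.15 (SE, edgeR adjusted p = 0.0011), and its log2 fold change with P7 against adult platelets was -2.14 ± 0.17 (adjusted p = 4.71e-05).

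Arhgef18 encodes a guanine nucleotide exchange factor that acts at cell junctions and the cell cortex. It lies on chromosome 8 at 3393006 to 3456601 (plus strand) and was the most abundant of the 9 per kilobase of exon. Arhgef18 had normalised CPM of 14.1, 12.97 and 11.3 with P7 platelets, 45.6, 59.1 and 73.2 with adult platelets, and 99.0, 107 and 100.5 in the control. The P7 libraries were all below the adult ones and the adult ones all below the control. Its mean was 8.001-fold lower with P7 platelets than in the control. With adult platelets it fell against the control, with a log2 fold change of -0.79 ± 0.15 (SE, edgeR adjusted p = 0.00476). With P7 against adult platelets its log2 fold change was -2.21 ± 0.16 (edgeR adjusted p = 2.62e-05), the largest step of the 9 in that comparison.

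Plekha6 encodes a protein with a pleckstrin homology domain, a fold that often binds membrane phosphoinositides, and it lies on chromosome 1 at 133164210 to 133303435 (plus strand). The normalised CPM of Plekha6 was 1.24, 1.06 and 1.06 with P7 platelets, 3.52, 4.06 and 5.22 with adult platelets, and 8.75, 10.3 and 9.65 in the control. It had the lowest level of the 9 per kilobase of exon, and its groups did not overlap. Its mean was 8.53-fold lower with P7 platelets than in the control. Plekha6 fell with adult platelets against the control, with a log2 fold change of -1.16 ± 0.15 (SE, edgeR adjusted p = 0.000658), and P7 against adult platelets gave a log2 fold change of -1.93 ± 0.17 (adjusted p = 7.09e-05).

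Scel encodes sciellin, a precursor of the cornified envelope in stratified epithelia, and lies on chromosome 14 at 103513342 to 103612797 (plus strand). Scel had normalised CPM of 1.67, 1.40 and 1.12 with P7 platelets, 6.04, 5.55 and 6.998 with adult platelets, and 14.1, 12.5 and 12.9 in the control. The groups did not overlap, and the spread relative to the mean was widest in the P7 libraries. Its mean was 9.41-fold lower with P7 platelets than in the control. Scel fell with adult platelets against the control, with a log2 fold change of -1.09 ± 0.13 (SE, edgeR adjusted p = 0.000455), and with P7 against adult platelets its log2 fold change was -2.15 ± 0.15 (adjusted p = 2.23e-05). Of 5 epithelial markers, none exceeded 1 CPM in any group, and Krt5 and Krt14, the keratins of basal epithelium, were at 0 in all libraries.

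Ndnf encodes a secreted glycoprotein described in neurons and endothelium, and lies on chromosome 6 at 65671590 to 65712326 (plus strand). The normalised CPM of Ndnf was 2.81, 3.32 and 2.698 with P7 platelets, 7.01, 8.61 and 12.2 with adult platelets, and 15.5, 25.3 and 27.6 in the control. Control replicate 1 was well below the other control libraries but still above all adult libraries. Its mean was 7.75-fold lower with P7 platelets than in the control. Ndnf fell with adult platelets against the control, with a log2 fold change of -1.295 ± 0.24 (SE, edgeR adjusted p = 0.00467), and its log2 fold change with P7 against adult platelets was -1.66 ± 0.27 (adjusted p = 0.00143).

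Ypel2 encodes a member of the Yippee-like family of small, conserved zinc-binding proteins, and lies on chromosome 11 at 86936425 to 86993707 (minus strand). Ypel2 had normalised CPM of 5.35, 2.90 and 2.83 with P7 platelets, 14.5, 11.8 and 12.7 with adult platelets, and 29.3, 28.1 and 27.8 in the control. P7 replicate 1 was high within its group, with a coefficient of variation of 38.9% there against 2.83% in the control, yet the groups did not overlap. Its mean was 7.66-fold lower with P7 platelets than in the control. Ypel2 fell with adult platelets against the control, with a log2 fold change of -1.13 ± 0.18 (SE, edgeR adjusted p = 0.00236), and its log2 fold change with P7 against adult platelets was -1.81 ± 0.21 (adjusted p = 0.000255).

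Trerf1 encodes a zinc finger protein, known in human as a transcription regulator of steroid-producing cells and related to the scaffold of a histone deacetylase complex (MiDAC). It lies on chromosome 17 at 47140875 to 47361958 (plus strand), where the annotation classes it as a processed transcript. The normalised CPM of Trerf1 was 4.65, 3.81 and 3.34 with P7 platelets, 12.8, 14.8 and 21.3 with adult platelets, and 19.7, 17.8 and 17.2 in the control. The P7 libraries were apart from all others, while adult and control libraries overlapped, adult replicate 3 being the highest of all 9. Its mean was 4.64-fold lower with P7 platelets than in the control. With adult platelets its log2 fold change was -0.16 ± 0.18 against the control (SE, edgeR adjusted p = 0.544), with a 95% interval of -0.55 to 0.24. With P7 against adult platelets its log2 fold change was -2.05 ± 0.20 (edgeR adjusted p = 0.000113). Without the 4 libraries high in the antibody gene Igkc, its log2 fold change with adult platelets was -0.24 and passed the test (edgeR adjusted p = 0.0457), 1 adult library being left and assumed to vary like the others.

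**Figure D2:**
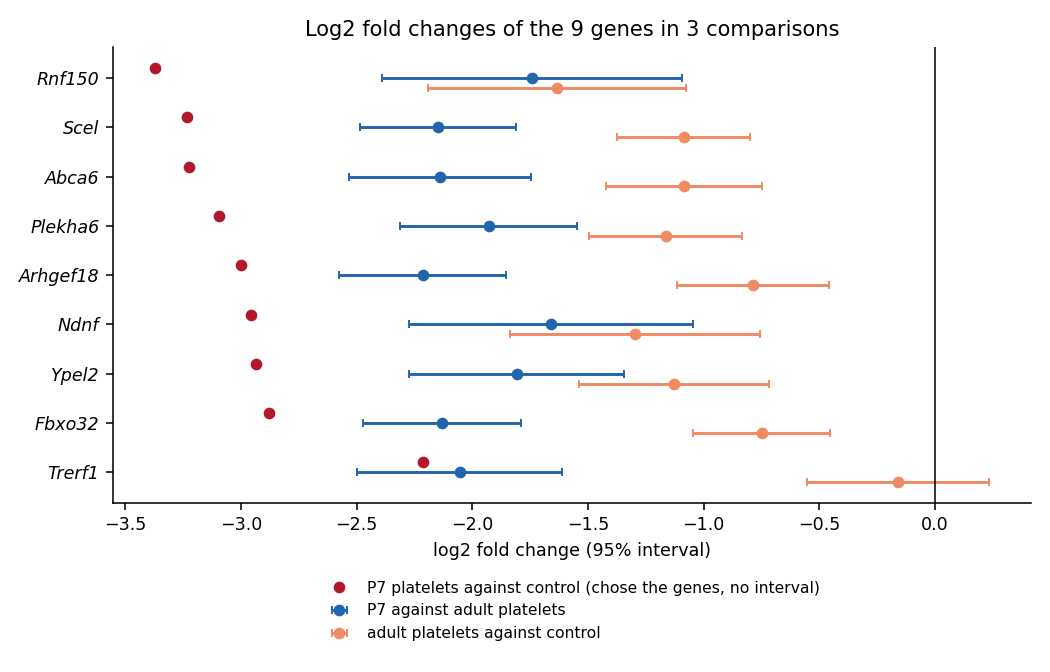
Log2 fold changes of the 9 genes with P7 platelets against control (red, the contrast that chose them, with no interval), with P7 against adult platelets (blue) and with adult platelets against control (orange). Bars are 95% intervals of the edgeR fit, and the interval of Trerf1 with adult platelets against control crosses 0.

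The place of the adult libraries varied among the 9 genes. The log2 fall with adult platelets was 48.4% of the log2 fall with P7 platelets for Rnf150, 43.8% for Ndnf, 38.4% for Ypel2 and 37.7% for Plekha6. It was 33.6% for both Abca6 and Scel, 26.2% for Arhgef18, 26.0% for Fbxo32 and 7.18% for Trerf1. The median over the 9 was 33.6%. Over the 974 genes at least 2-fold lower with P7 platelets it was 39.8%, with quartiles of 25.3 and 52.9%. The fall with P7 platelets, which chose the 9 genes, divides this share, and both falls use the same control libraries. Choice by a large fall can by itself lower the share, so the 2 medians are not a test. The 95% intervals of neighbouring genes in the order of shares overlapped in the comparison of adult platelets with control. Those of Fbxo32 (-1.04 to -0.45) and Rnf150 (-2.19 to -1.07) did not. As means, P7 libraries held 9.63 to 21.6% of the control level and adult libraries 32.2 to 89.5%. The median log2 fold change of the 9 was -2.05 with P7 against adult platelets and -1.09 with adult platelets against control. The medians over all genes tested were -0.02 and -0.00.

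**Figure D3:**
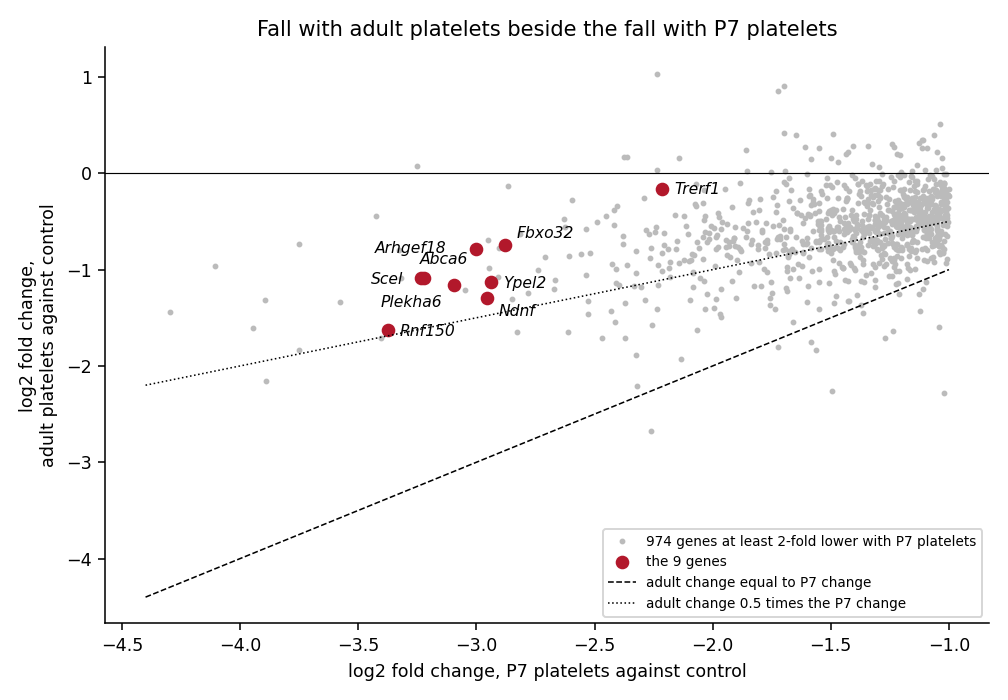
Log2 fold change with adult platelets (vertical axis) beside that with P7 platelets (horizontal axis), both against control, for the 974 genes called at least 2-fold lower with P7 platelets (grey) and the 9 genes (red). Both axes use the same control libraries. Rnf150 lies near the dotted line of an adult change 0.5 times the P7 change, and Trerf1 lies near 0 on the vertical axis.

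By size, 8 of the 9 hold the first 8 places among called genes whose name is not a predicted or clone name, with a mean level of at least 2 log2 CPM and groups that do not overlap, ranked by the drop with P7 platelets. The smallest of these is that of Fbxo32, at a log2 fold change of -2.88, and the next gene outside is Cnnm2 at -2.74. Trerf1 holds place 30 in that ranking. The ranking uses the contrast that chose the genes, so these places restate the choice and are not a test. Over all genes tested, 18 others dropped more than Fbxo32, of which 17 had a mean below 2 log2 CPM and 1 had a predicted name only. Read counts behind the 9 genes were 28 to 4091 per library.

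Per kilobase of exon, the control level in normalised CPM was 12.2 for Arhgef18, 5.85 for Ypel2, 5.52 for Abca6 and 5.26 for Scel. It was 2.58 for Fbxo32, 2.25 for Ndnf, 2.01 for Trerf1, 1.065 for Rnf150 and 0.764 for Plekha6. The P7 level on the same scale ran between 0.0892 for Plekha6 and 1.52 for Arhgef18. Antisense genes overlap Rnf150 (Gm45449), Plekha6 (Gm19461) and Fbxo32 (Gm15943), none with enough reads to be tested. The counting's strand setting is unknown from the sources used here, so reads of these genes and of their antisense partners cannot be told apart.

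Within both platelet groups, the highest library was shared by most of the 9 genes. Adult replicate 3 was the highest adult library for 7 of the 9 and adult replicate 1 the lowest for 6. P7 replicate 1 was the highest P7 library for 7 and P7 replicate 3 the lowest for 7. The same counts over all genes are not given here, so these describe the 9 genes only. The platelet marker list, 9 genes such as Pf4 and Ppbp, took 0.0827 to 0.0943% of counts with P7 platelets, 0.0490 to 0.0815% with adult platelets and 0.00236 to 0.00262% in the control. Of its 9 genes 8 exceeded 1 CPM with P7 platelets, 8 with adult platelets and 2 in the control, where 2 were at 0. By library the platelet share was 0.0943, 0.0827 and 0.0834% in P7 replicates 1, 2 and 3, and 0.0760, 0.0490 and 0.0815% in adult replicates 1, 2 and 3. P7 replicate 1 and adult replicate 3, the highest libraries of their groups for 7 of the 9 genes, were also highest in platelet share. A link between the 2 was not tested. The libraries lowest for most of the genes, P7 replicate 3 and adult replicate 1, were not lowest in platelet share. The erythroid list, 5 genes of red cells such as Alas2, took 4.36 to 5.50% of counts with P7 platelets. It took 0.0481 to 0.180% with adult platelets and 0.000881 to 0.00117% in the control. P7 replicate 1 had the highest erythroid share of its group, whereas adult replicate 3 had the lowest of its group. Mitochondrially encoded transcripts took 2.33 to 2.42% of counts with P7 platelets, 2.05 to 2.28% with adult platelets and 1.17 to 1.62% in the control, so these shares stood in steps without overlap, as the 9 genes other than Trerf1 did in the opposite direction. The fit was repeated without the listed platelet and erythroid genes, other globin genes and mitochondrially encoded transcripts. In it 8 genes were called lower with adult platelets against control and 9 with P7 against adult platelets. Removing those rows acts on other genes mainly through scaling. It cannot show whether platelet or red cell RNA altered the levels of the 9 genes.

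Among lists of other cells, dendritic markers took 0.00234 to 0.00339% of counts with P7 platelets, 0.00315 to 0.00579% with adult platelets and 0.00412 to 0.00494% in the control. Neutrophil markers took 0.00207 to 0.00326%, 0.00255 to 0.00876% and 0.00220 to 0.00443% in the same groups. Markers of nonclassical monocytes took 0.162 to 0.192% with P7 platelets, 0.142 to 0.169% with adult platelets and 0.172 to 0.181% in the control. That sum hides changes of single genes. Of the 8 markers, 4 rose and 3 fell with P7 platelets against control (29.9 and 29.3% of all genes). With adult platelets against control 0 rose and 4 fell (14.3 and 12.0% of all genes). With P7 against adult platelets 6 rose and 0 fell (19.7 and 19.8% of all genes). Markers of T and NK cells did not exceed 1 CPM in any group. Igkc had 410 to 772 CPM, without TMM scaling, in P7 replicate 1, adult replicates 1 and 3 and control replicate 1, and 123 to 172 CPM in the other 5 libraries. The part of these differences in the levels of the 9 genes was not tested beyond the fits without those libraries or with a term for them. In bulk RNA, fewer cells expressing a gene and less of its RNA per cell cannot be told apart.

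The other genes of each family mostly did not share the size of these falls. As the 9 genes were chosen for large drops with P7 platelets, smaller drops in their relatives follow largely from that choice. The ABCA6-like cluster came nearest: of its 4 other genes tested, 3 fell with P7 platelets against control and 0 rose. Over all genes tested 29.3% were called lower and 29.9% higher in that comparison. Of the 98 genes in all related lists examined, upper-quartile scaling lost 4 calls, gained 3 and reversed 0 with P7 platelets against control. It also lost 4 calls, gained 3 and reversed 0 with adult platelets against control. Abca9, the next gene to Abca6, had normalised CPM of 37.5, 38.2 and 35.1 with P7 platelets, 72.8, 80.8 and 84.6 with adult platelets, and 160, 166 and 175 in the control. Its groups were narrow and apart. Abca9 fell by 2.18 ± 0.07 on the log2 scale with P7 platelets against control (SE, edgeR adjusted p = 2.67e-07) and by 1.07 ± 0.07 with adult platelets against control (adjusted p = 9.75e-06). Abca8b averaged 0.488 CPM with P7 platelets, 0.897 CPM with adult platelets and 1.57 CPM in the control, and fell by 1.68 ± 0.23 on the log2 scale with P7 platelets against control (edgeR adjusted p = 0.000203). Abca8a also fell against control with P7 platelets, by 1.99 ± 0.47 (edgeR adjusted p = 0.00524), at 9 reads in all in the P7 libraries. Abca5 had a log2 fold change of -0.47 ± 0.31 (edgeR adjusted p = 0.216). These are near paralogs, and the labels do not say how reads that fit several of them were counted.

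Of 6 other subfamily A transporters tested, 3 fell with P7 platelets against control and 0 rose (29.3 and 29.9% of all genes). With upper-quartile scaling Abca13 was also called lower. Abca2 fell by 1.36 ± 0.10 and Abca3, which loads surfactant lipids in lung, by 1.21 ± 0.06 on the log2 scale (SE, edgeR adjusted p = 4.73e-06 and 7.11e-07). Abca1, the cholesterol exporter of macrophages, had a log2 fold change of -0.03 ± 0.31 (edgeR adjusted p = 0.945).

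Of 7 other PA-TM-RING ligases tested, 3 fell and 2 rose with P7 platelets against control (29.3 and 29.9% of all genes). In the comparison of adult platelets with control, 1 fell and 2 rose (12.0 and 14.3% of all genes). Upper-quartile scaling added a fall of Znrf3 with P7 platelets and of Rnf13 with adult platelets. Rnf128, known as GRAIL and as a brake on T cell activation, went the other way to Rnf150, with a mean of 38.7 CPM with P7 platelets, 19.5 CPM with adult platelets and 8.21 CPM in the control. Its log2 fold change was 2.24 ± 0.26 with P7 platelets against control (SE, edgeR adjusted p = 7.23e-05) and 1.25 ± 0.26 with adult platelets against control (adjusted p = 0.00776). Rnf149 rose by 0.70 ± 0.06 and Rnf167 fell by 0.66 ± 0.05 with P7 platelets against control (edgeR adjusted p = 1.36e-05 and 8.71e-06).

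Of 4 other SCF parts or Fbxo32 paralogs tested, 2 rose and 1 fell with P7 platelets against control (29.9 and 29.3% of all genes). The scaffold Cul1 rose by 0.17 ± 0.04 and the adaptor Skp1a by 0.15 ± 0.04 on the log2 scale (SE, edgeR adjusted p = 0.00745 and 0.00957), and both lost the call with upper-quartile scaling, which moved the median of all genes by -0.10 log2 units. The paralog Fbxo25 fell by 0.45 ± 0.14 (edgeR adjusted p = 0.017). Trim63, the other muscle-wasting ligase, had 1 read with P7 platelets and 0 in the other groups. Among 26 other genes listed as FoxO targets, 11 fell and 9 rose with P7 platelets against control (29.3 and 29.9% of all genes). FoxO factors induce Fbxo32 in muscle, and the list also holds the factors Foxo1, Foxo3 and Foxo4 themselves. With adult platelets against control 9 of the 26 fell and 4 rose (12.0 and 14.3% of all genes). Upper-quartile scaling lost the rise of Bcl6 with P7 platelets. With adult platelets it lost the rise of S1pr1 and added a fall of Ccng2. Cdkn1b, an inhibitor of cell cycle entry, fell by 0.87 ± 0.05 and Foxo3 itself by 0.65 ± 0.05 with P7 platelets against control (edgeR adjusted p = 2.49e-06 and 8.1e-06), whereas Cat, which encodes catalase, rose by 0.76 ± 0.05 (adjusted p = 5.25e-06).

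Of 17 other ARHGEF exchange factors tested, 7 fell and 6 rose with P7 platelets against control (29.3 and 29.9% of all genes). Arhgef6 fell by 0.92 ± 0.06 and Arhgef12 rose by 0.85 ± 0.11 on the log2 scale (SE, edgeR adjusted p = 2.34e-06 and 0.00017). Of 5 other PLEKHA genes tested, 2 rose and 0 fell with P7 platelets against control (29.9 and 29.3% of all genes). Those were Plekha1, by 0.67 ± 0.11, and Plekha3, by 0.62 ± 0.07 (edgeR adjusted p = 0.000589 and 9.06e-05).

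Of 4 other Yippee-like genes tested, 1 fell and 0 rose with P7 platelets against control (29.3 and 29.9% of all genes). The number that fell became 2 with upper-quartile scaling, through Ypel5. Ypel3 fell by 1.02 ± 0.08 on the log2 scale, with means of 79.1 CPM with P7 platelets, 145 CPM with adult platelets and 161 CPM in the control (SE, edgeR adjusted p = 9.65e-06). With adult platelets Ypel3 had a log2 fold change of -0.15 (edgeR adjusted p = 0.202). Of 5 other MiDAC genes tested, 2 rose and 0 fell with P7 platelets against control (29.9 and 29.3% of all genes). Those were the deacetylases Hdac1, by 0.53 ± 0.06, and Hdac2, by 0.22 ± 0.04 (edgeR adjusted p = 6.23e-05 and 0.00131), while the Trerf1 paralog Elmsan1 had a log2 fold change of -0.08 ± 0.09 (adjusted p = 0.424). Of 3 other cornified envelope genes tested, Tgm3 rose by 1.24 ± 0.27 and Tgm1 fell by 0.74 ± 0.25 with P7 platelets against control (edgeR adjusted p = 0.0033 and 0.0277).

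**Figure D4:**
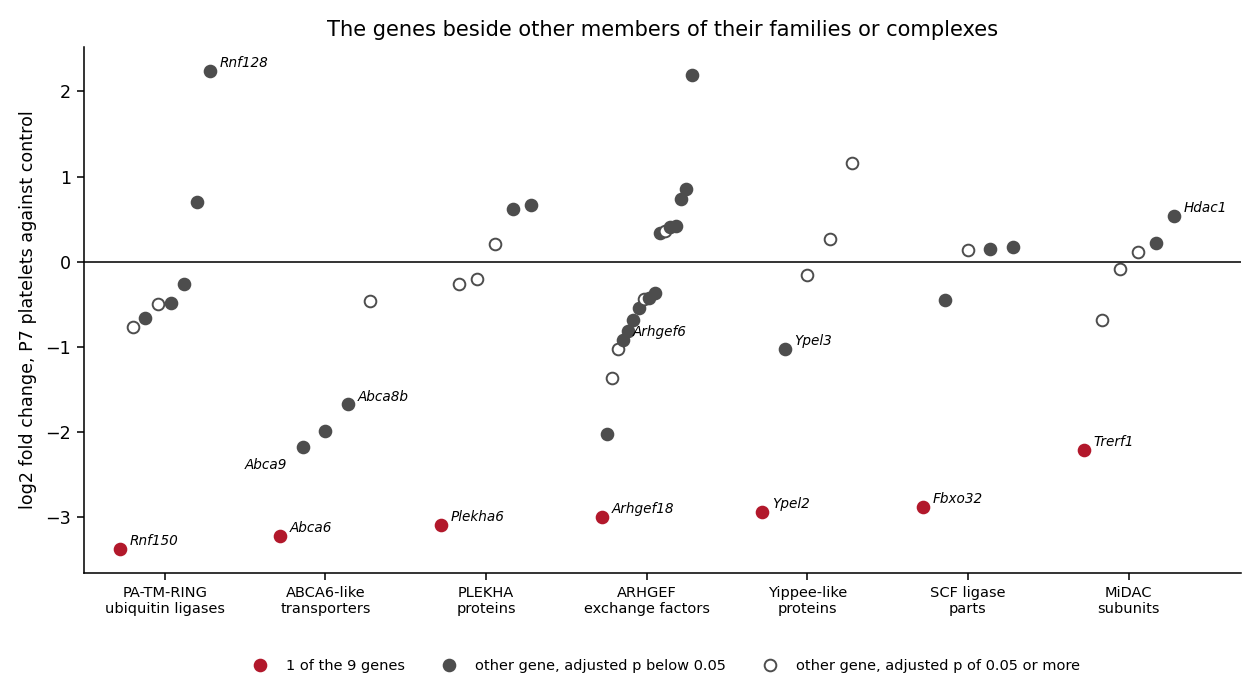
Log2 fold change with P7 platelets against control for the genes and for other tested members of their families or complexes, 1 column per family. Red points are 7 of the 9 genes, filled grey points other genes with an adjusted p below 0.05 and open points the rest. Each red point is the lowest of its column, as its gene was chosen for a large drop, and the ABCA6-like column holds 3 other filled points below 0.

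Neighbouring genes did not all fall with the 9 genes. Of the 18 nearest tested protein-coding genes on either side, 7 fell and 5 rose with P7 platelets against control (29.3 and 29.9% of all genes). With adult platelets against control 4 fell and 0 rose (12.0 and 14.3% of all genes). With P7 against adult platelets 5 fell and 4 rose (19.8 and 19.7% of all genes). The 4 that fell with adult platelets, Abca9 among them, also fell in both other comparisons. Pex11g lies 504 bases beyond the end of Arhgef18 in the annotation. Its log2 fold change was -0.94 with P7 platelets against control (edgeR adjusted p = 0.0277). It was -0.07 with adult platelets against control (edgeR adjusted p = 0.885).

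The profile of the 9 genes over the 9 libraries was compared with that of 9293 other genes by the root mean square difference of centred log2 CPM. The most alike were Cnnm2 at 0.172, Pdcd4 at 0.213, Nat8l at 0.218, Mettl7a1 at 0.274 and S1pr4 at 0.279 log2 units. Abhd15 at 0.284, Fam187b at 0.293 and Lsr at 0.313 followed. Among the 9 genes the difference from their own mean profile was 0.0754 for Plekha6, the nearest, and 0.395 for Trerf1 and 0.408 for Rnf150, the farthest. Cnnm2, which encodes a magnesium transport mediator, averaged 8.02 ± 0.137 CPM with P7 platelets, 26.8 ± 8.41 CPM with adult platelets and 53.6 ± 6.79 CPM in the control (SD, n = 3 each). Pdcd4, which encodes an inhibitor of translation, averaged 7.66 ± 1.32 CPM with P7 platelets, 24.7 ± 2.56 CPM with adult platelets and 43.9 ± 2.56 CPM in the control (SD, n = 3 each).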

How the data were processed

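PolyA RNA of mouse monocytes was made into stranded libraries and sequenced as single reads of 75 nt, per the labels' protocols. The authors deposited raw counts per gene symbol, 1 table without a header line per library. Salmon 1.3.0, featureCounts, Subread 2.0.1, STAR 2.7.6a and fastp 0.20.1 are listed, with no role, in the submitters' processing notes. Build, annotation and strand setting of the counting: not given in the sources used here. From the deposited counts, edgeR 4.0.16 in R 4.3.3 was run on all 9 libraries. Genes were kept by filterByExpr with a minimum count of 10, scaled by TMM and fitted with 1 mean per group in the quasi-likelihood test, leaving 6 residual degrees of freedom. TMM factors were 0.882 to 1.10. Calls were made below an adjusted p of 0.05, adjusted over 13707 genes by Benjamini and Hochberg. CPM values are TMM-normalised unless said otherwise, and errors of log2 fold changes are standard errors. Groups are the treatment labels.

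Genes were named by rule: the 9 genes, up to 4 of each related list with the smallest adjusted p plus near paralogs, and the 8 genes most alike in profile. Genes outside the rule, chosen after their values were seen, are Abca1, Pex11g and those of the closing observations. The 9 genes and all lists were chosen with earlier results of these data known. The result of 1 related list is not reported here. Coordinates come from GENCODE M21 (GRCm38), to which 53292 of the symbols matched and 2075 did not, and promoters from RefSeq. The code was tested on simulated data. Alternatives were other scalings (RLE, upper-quartile), filters, DESeq2 1.42.0, limma 3.58.1 (voom), a replicate block and fits of 2 groups. Others were removal of the listed platelet and erythroid genes, globin genes and mitochondrial transcripts, and each library left out in turn. A further 2 were chosen after seeing the data for the Igkc split. Depth per library is given above with the groups. The 3 libraries per group limit precision.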

Additional observations from a re-analysis of the deposited data

How the results depend on the processing

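Over 20 alternatives, 18 planned and 2 chosen after seeing the data, the log2 fold changes of the 9 genes kept their direction and side of the threshold in 180 of 180 values with P7 against adult platelets and in 179 of 180 with adult platelets against control. The exception was Trerf1, called without the 4 libraries high in Igkc, which leaves 1 adult library. Its log2 fold change with adult platelets ran between -0.40 (without adult replicate 3) and -0.01 (without adult replicate 1), and its adjusted p between 0.0457 and 0.968. Leaving out each library gave 8 genes lower with adult platelets and 9 with P7 against adult platelets every time. All genes called with adult platelets against control, 3617 as reported, numbered 2031 to 3774 with a library left out. The lowest came without control replicate 2 (2031) and control replicate 3 (2207), and the cause was not tested. The corresponding ranges were 3978 to 5540 with P7 against adult platelets (5424 as reported) and 7101 to 8482 with P7 platelets against control (8111 as reported).

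Whether replicate numbers pair the libraries was not settled by the check made. Deviations of same-numbered libraries correlated across genes at 0.486 to 0.576 for number 1, 0.209 to 0.346 for number 2 and -0.0813 to 0.335 for number 3. Libraries of number 1 correlated with those of other numbers at -0.558 to 0.101. Among other pairs of unlike number, adult replicate 2 with P7 replicate 3 reached 0.428. With the replicate number as a block, 8, 9 and 8 of the genes were lower with adult platelets, lower with P7 against adult platelets and intermediate, and 4228, 5965 and 8565 genes were called with adult platelets against control, with P7 against adult platelets and with P7 platelets against control. The 9 genes rest on at least 28 reads in each library, and the lowest counts, in P7 libraries, carry the largest counting error.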

Other observations

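The 20 largest drops with P7 platelets, ranked as above, hold 8 of the 9 genes and 12 others, and the adult libraries did not treat these 12 alike. All 12 were lower with P7 than with adult platelets, 9 were also lower with adult platelets than in the control, and 3 were not called there. These genes were chosen after their values were seen. Tlr5, the receptor for bacterial flagellin, averaged 2.56 ± 0.740 CPM with P7 platelets, 15.03 ± 4.89 CPM with adult platelets and 13.3 ± 2.36 CPM in the control (SD, n = 3 each). Its log2 fold change was 0.17 ± 0.24 with adult platelets against control (edgeR adjusted p = 0.633) and -2.55 ± 0.27 with P7 against adult platelets (adjusted p = 0.000199). Fam187b and Aatk were the other two, at log2 fold changes of -0.50 ± 0.19 and -0.38 ± 0.26 with adult platelets against control (edgeR adjusted p = 0.0763 and 0.31). Hpgd and Kctd12b lay at the other end of the 12. With adult platelets Kctd12b fell by 1.65 ± 0.16 on the log2 scale against the control (edgeR adjusted p = 0.000174), which is 63.0% of its log2 fall with P7 platelets. Hpgd fell by 1.54 ± 0.09 with adult platelets against the control (edgeR adjusted p = 8.42e-06), which is 64.0% of its log2 fall with P7 platelets.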
